A study of Mus musculus with 32 samples.

Results

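Brown adipose tissue (BAT) arrays that carried skeletal muscle RNA were set against BAT arrays that carried little of it. An array was called muscle-rich when *Acta1*, the actin of skeletal muscle thin filaments, was above 8 on the log2 scale and muscle-poor when it was below 5. By this rule 3 of the 8 BAT arrays were muscle-rich (wild-type mice 2 and 3 and knockout mouse 2) and 5 were muscle-poor (wild-type mice 1 and 4 and knockout mice 1, 3 and 4), out of 32 arrays in the series. The lowest muscle-rich array, wild-type 2, had *Acta1* at 8.77 and the highest muscle-poor array, knockout 3, had it at 4.52, so no array lay between the cut-offs. Both classes held both genotypes. The members were chosen by the measured *Acta1* values and by no record of dissection, so every difference between the classes is given as a description, with no test.

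The series compared male mice lacking *Gpr146* in the whole body (Gpr146-/-, bred from heterozygous parents on a C57BL/6J background) with wild-type littermates, 4 mice per genotype in each tissue. All were 20 weeks old, had eaten a high-fat diet (HFD) for 3 months and were fasted overnight before liver, inguinal white fat (iWAT), epididymal white fat (eWAT) and interscapular BAT were taken. Each tissue sample was hybridized to 1 Affymetrix Mouse Gene 2.1 ST array, whose probes are spread along the exons of a gene. The values are log2 expression, deposited by the authors as a table per tissue. The medians of the BAT arrays lay between 2.82 and 2.86, and Pearson's r over 24646 genes ran from 0.984 to 0.991 for BAT arrays of a class and from 0.981 to 0.990 for arrays of different classes. These genes are not independent replicates. *Gpr146*, the targeted gene, measured 5.10, 5.42, 5.34 and 5.60 in wild-type and 3.82, 4.69, 4.05 and 4.27 in knockout BAT, in the order of the mouse numbers. Every knockout array was below every wild-type array (exact permutation test, two-sided, p = 0.0286, which is the lowest value 4 arrays against 4 can give).

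Brown fat burns fatty acids for heat through *Ucp1*, the uncoupling protein of its mitochondria. The interscapular pad lies against the muscles of the back and shoulder, and brown adipocytes and skeletal muscle both descend from precursors that express *Myf5*. A mature muscle fibre is a single large cell filled with sarcomeres, in which myosin thick filaments pull on actin thin filaments when calcium is released from the sarcoplasmic reticulum. Fast fibres contract quickly and live largely on glycogen, slow fibres are oxidative, and each kind has its own set of myosins, troponins and calcium pumps.

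Promoters of 4 genes with large class differences are shown because muscle genes are known to share short control elements, the E-box bound by myogenic factors and the CArG box bound by serum response factor. Each stretch is the 150 bases before the start site, 5′ to 3′ on the strand of the gene, from RefSeq (build GRCm38.p6). Capitals mark an E-box (CANNTG) or a CArG box.
Acta1 (chr8:123894776-123894925, minus strand): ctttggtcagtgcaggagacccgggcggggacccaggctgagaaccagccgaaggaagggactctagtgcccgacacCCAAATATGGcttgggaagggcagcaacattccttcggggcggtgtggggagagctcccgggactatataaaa
Myh4 (chr11:67237662-67237811, plus strand): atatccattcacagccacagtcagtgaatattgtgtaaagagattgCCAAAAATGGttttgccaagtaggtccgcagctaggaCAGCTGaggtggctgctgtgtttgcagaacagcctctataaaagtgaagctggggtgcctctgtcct
Atp2a1 (chr7:126463074-126463223, minus strand): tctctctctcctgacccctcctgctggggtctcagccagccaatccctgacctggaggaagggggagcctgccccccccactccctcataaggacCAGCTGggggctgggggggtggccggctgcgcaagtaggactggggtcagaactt
Ttn (chr2:76982548-76982697, minus strand): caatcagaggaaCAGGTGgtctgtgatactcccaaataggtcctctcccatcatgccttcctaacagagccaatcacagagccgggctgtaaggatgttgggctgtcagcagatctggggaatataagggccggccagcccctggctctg
The *Acta1* and *Myh4* stretches each hold 1 CArG box, and the *Myh4* and *Atp2a1* stretches each hold 1 E-box of the form CAGCTG. The E-box in the *Ttn* stretch has another middle. The RefSeq promoter table had no entry for *Tnnt3* or *Neb*.

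*Acta1* measured 3.86, 8.77, 9.17 and 3.38 in BAT of wild-type mice 1 to 4 and 4.40, 9.28, 4.52 and 3.66 in BAT of knockout mice 1 to 4. Being the gene of the rule, it separated the classes by construction, with means of 9.07 ± 0.27 (SD, n = 3) and 3.96 ± 0.49 (SD, n = 5). Differences between the classes were fitted with genotype as a covariate, and that of *Acta1* was 5.24 on the log2 scale. *Myh4*, the myosin heavy chain of the fastest fibres (type IIb), measured 3.34, 8.27, 8.98 and 2.56 in wild-type and 2.41, 9.18, 4.53 and 2.93 in knockout BAT. Its fitted class difference of 5.77 was larger than that of any other of the 24646 genes. The muscle-poor values of such genes lie near the array medians and no detection call was used, so no fold is given for them. *Tnnt3*, the troponin T of fast fibres, measured 3.56, 7.69, 8.81 and 3.78 in wild-type and 3.74, 8.95, 4.77 and 3.53 in knockout BAT, a difference of 4.73. All 3 muscle-rich arrays were thus far above all 5 muscle-poor arrays for the 3 marker genes, and in bulk tissue more muscle fibres and more RNA per fibre cannot be told apart.

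The pump and the scaffold of the fibre behaved alike. *Atp2a1* (SERCA1), which returns calcium to the sarcoplasmic reticulum of fast fibres, measured 3.40, 8.38, 9.26 and 3.90 in wild-type and 3.48, 9.37, 4.78 and 3.49 in knockout BAT. *Ttn*, the giant spring that spans the sarcomere from Z-disc to M-line, measured 2.58, 7.11, 7.65 and 2.51 in wild-type and 2.52, 7.78, 2.91 and 2.58 in knockout BAT. Their class differences were 5.29 and 4.95, and in each the lowest muscle-rich array exceeded the highest muscle-poor array by more than 3 log2 units (3.60 and 4.20).

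*Ucp1* showed no such split, at 11.38, 11.59, 11.37 and 11.55 in wild-type and 11.25, 11.36, 11.03 and 11.41 in knockout BAT. Its class difference was 0.06. *Adipoq*, the adipocyte hormone adiponectin, lay between 7.68 and 8.13 in all 8 arrays. The muscle-rich arrays therefore kept the brown fat level of *Ucp1*, and the classes overlapped for both genes.

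**Figure D1:**
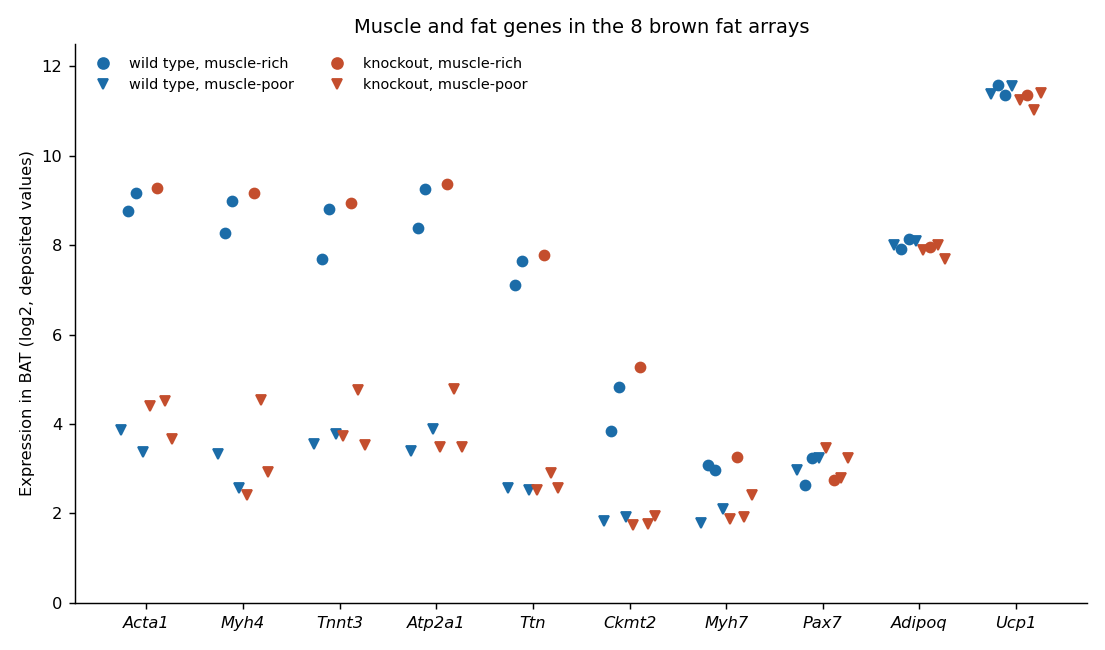
Log2 expression of 6 genes of the muscle fibre (*Acta1* to *Ttn*, and slow *Myh7*), mitochondrial *Ckmt2*, the satellite cell gene *Pax7* and the fat genes *Adipoq* and *Ucp1* in each of the 8 BAT arrays, as points coloured by genotype and shaped by class. *Acta1* lies at 8.77 to 9.28 in the muscle-rich arrays and at 3.38 to 4.52 in the muscle-poor ones, whereas *Ucp1* lies between 11.03 and 11.59 in all.

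A gene was counted as separated by the class when the fitted difference was at least 1 log2 unit and the 3 muscle-rich arrays all lay on one side of the 5 muscle-poor ones. Of all 24646 genes, 95 were separated with higher values in the muscle-rich arrays (0.385%) and 0 with lower values (0%). Of the 135 genes in 7 lists of skeletal muscle genes, 58 were among the 95. Without the limit on size, the muscle-rich arrays lay entirely above the muscle-poor ones for 86 of the 135, against 2.32% of all genes, and entirely below for 0, against 1.72% of all genes. The median difference was 0.76 over the 135 and -0.00 over all genes.

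Of 16 thin filament genes, 10 were separated and 15 had all muscle-rich arrays on top. The largest differences beside *Acta1* and *Tnnt3* were those of *Neb* (4.71), the nebulin ruler that lies along the actin filament, and *Tnni2* (4.01), the inhibitory troponin of fast fibres. *Neb* was 2.46 to 2.86 in the muscle-poor and 7.03 to 7.63 in the muscle-rich arrays. *Actc1*, the cardiac actin that developing muscle also uses, had the smallest difference of the list (0.15), at 1.83 to 2.27 in all 8 arrays.

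Of 18 thick filament genes, 12 were separated. After *Myh4* came *Myh1* (4.26), the heavy chain of type IIx fibres, and *Mybpc1* (4.14), named the slow-type myosin-binding protein C. *Myh2* (3.76), the heavy chain of type IIa fibres, followed. These myosin genes lie side by side in the genome and resemble each other, so probes of one may pick up RNA of another. *Myh8* and *Myh3*, the perinatal and embryonic heavy chains, had differences of 0.04 and -0.15. *Myh3* lay between 1.29 and 1.96 in all 8 arrays, below the array median.

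Of 22 genes of the Z-disc and titin, 14 were separated and 19 had all muscle-rich arrays on top. *Myot* (4.64), *Actn3* (3.74) and *Actn2* (3.30), which anchor and cross-link thin filaments at the Z-disc, followed *Ttn*. *Actn3* is the alpha-actinin restricted to fast fibres and measured 3.02 to 3.66 in the muscle-poor against 6.45 to 7.47 in the muscle-rich arrays. *Ankrd1*, a stress-responsive ankyrin repeat protein, had a difference of -0.06.

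Of 20 calcium handling genes, 11 were separated. *Trdn* (4.00), which links the release channel to its calcium store, *Casq1* (3.94), the calcium-binding protein of that store, and *Pvalb* (3.84), the calcium buffer of fast fibres, stood behind *Atp2a1*. *Ryr1*, the release channel itself, measured 2.50, 3.65, 3.94 and 2.40 in wild-type and 2.37, 4.08, 2.52 and 2.55 in knockout BAT, a difference of 1.45. *Pln*, the inhibitor of SERCA2 in heart and slow fibres, had the smallest difference (0.11), as did *Atp2a2* (SERCA2), which brown fat expressed at 8.29 to 8.80 in all 8 arrays.

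Of 23 genes of muscle energy supply, 8 were separated. *Pygm* (3.97), the muscle glycogen phosphorylase, *Ckmt2* (2.89), the mitochondrial creatine kinase of muscle, *Cox6a2* (2.84), the muscle form of a cytochrome oxidase subunit, and *Eno3* (2.69), the muscle enolase, led the list. *Ckmt2* measured 1.83, 3.85, 4.82 and 1.92 in wild-type and 1.74, 5.28, 1.77 and 1.94 in knockout BAT. *Ckm*, the cytosolic creatine kinase of muscle, measured 2.79, 4.49, 5.23 and 2.94 in wild-type and 2.90, 5.33, 3.31 and 2.90 in knockout BAT. For both genes the muscle-poor arrays sat near the array median or below it, while each muscle-rich array stood above all of them. Members that brown fat itself expresses highly did not separate: *Cox7a1* lay between 10.46 and 10.69, *Cox8b* between 10.81 and 11.19 and *Ldhb* between 8.24 and 8.66. *Ucp3*, which brown fat and muscle share, had the lowest difference of the list (-0.32).

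Of 20 genes of the muscle membrane, the neuromuscular junction and protein turnover, 9 had all muscle-rich arrays on top, with a list median of 0.48, and 2 were separated, *Kbtbd10* (2.53, an older symbol of *Klhl41*, which stabilizes nebulin) and *Sgca* (1.00, alpha-sarcoglycan). *Fbxo32*, the ubiquitin ligase atrogin-1, had a difference of 0.86. The 5 acetylcholine receptor subunit genes had differences between -0.04 and 0.25, with *Chrne*, the adult subunit, the lowest of the list. Of 16 myogenic regulators, 3 had all muscle-rich arrays on top, with a list median of 0.06, and 1 was separated. *Myf6* (MRF4), the myogenic factor of mature fibres, measured 1.78, 2.59, 3.10 and 1.89 in wild-type and 1.90, 3.16, 1.71 and 1.90 in knockout BAT. *Mstn*, the secreted brake on muscle growth, *Mef2c*, a transcription factor of differentiated muscle, and *Vgll2* had differences of 0.49, 0.47 and 0.45. *Pax7*, the marker of satellite cells, had the lowest difference of the list (-0.27), at 2.97, 2.64, 3.25 and 3.24 in wild-type and 3.46, 2.76, 2.80 and 3.25 in knockout BAT, and the classes overlapped.

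**Figure D2:**
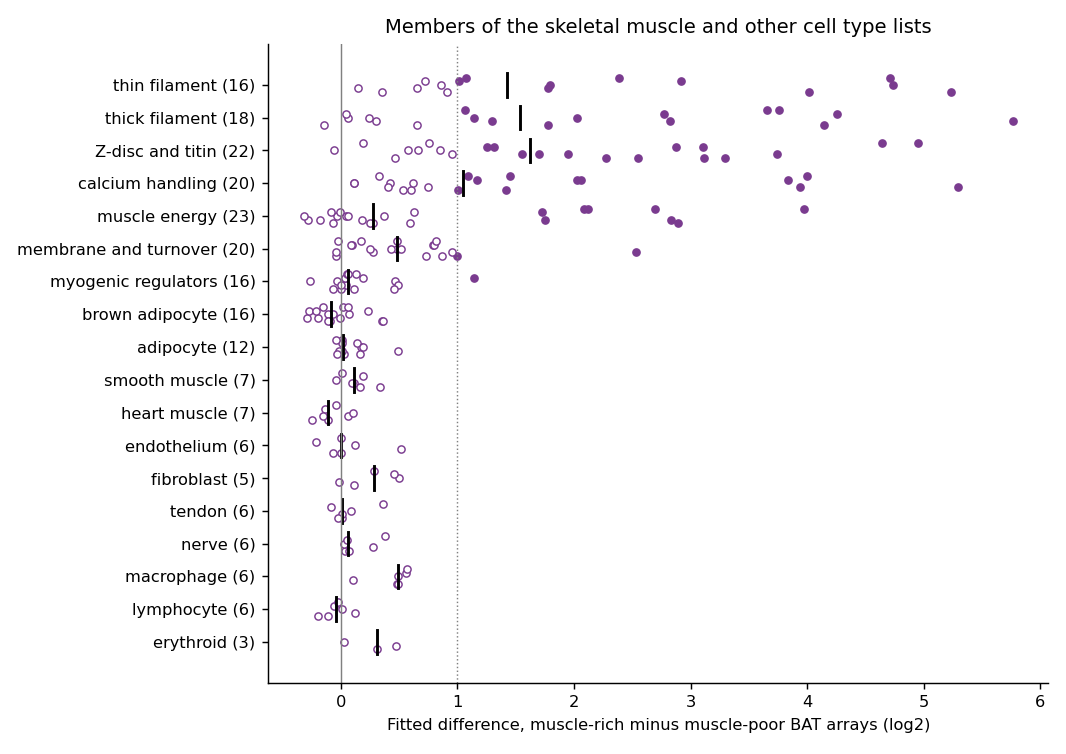
Fitted difference between muscle-rich and muscle-poor BAT arrays (log2, horizontal axis) for each member of 7 skeletal muscle lists and 11 lists of other cell types, with the number of measured members in parentheses. Filled points are genes separated by the class, black bars are list medians and the dotted line stands at 1. All filled points lie in the skeletal muscle lists, from 1.00 for *Sgca* to 5.77 for *Myh4*.

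All 12 genes of a fast fibre list were separated, with a median difference of 3.89 and a range from 2.82 (*Mybpc2*) to 5.77 (*Myh4*). The other members not named so far, *Tnnc2*, the calcium-binding troponin of fast fibres, and *Mylpf*, their regulatory light chain, had differences of 2.92 and 3.66. Of 12 genes of a slow fibre list 4 were separated: *Mb*, the oxygen store myoglobin (2.09), *Myoz2*, a Z-disc protein (1.70), *Myh7*, the slow heavy chain (1.14), and *Tnni1*, the slow inhibitory troponin (1.08). The median of the slow list was 0.65. *Mybpc1*, of slow type by name, was in neither list and had a larger difference than any gene of the slow list. *Mb* measured 5.11, 6.21, 7.16 and 5.43 in wild-type and 3.95, 7.44, 4.41 and 4.99 in knockout BAT, so that its muscle-poor values were themselves above the array median. *Myh7* lay at 1.79 to 2.40 in the muscle-poor and at 2.98 to 3.27 in the muscle-rich arrays.

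Of the slow genes that were not separated, *Tnnc1* (0.86), *Tnnt1* (0.65), *Myl2* (0.65) and *Tpm3* (0.35), all parts of the slow or cardiac contractile apparatus, had every muscle-rich array above every muscle-poor one. *Casq2* (0.42), *Myl3* (0.30) and *Atp2a2* (0.11) overlapped between the classes. *Myh7b* was the only member of the slow list with all muscle-rich arrays below the muscle-poor ones (fitted difference -0.08). Fast and slow genes differ in their probes, so their differences were not tested against each other.

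**Figure D3:**
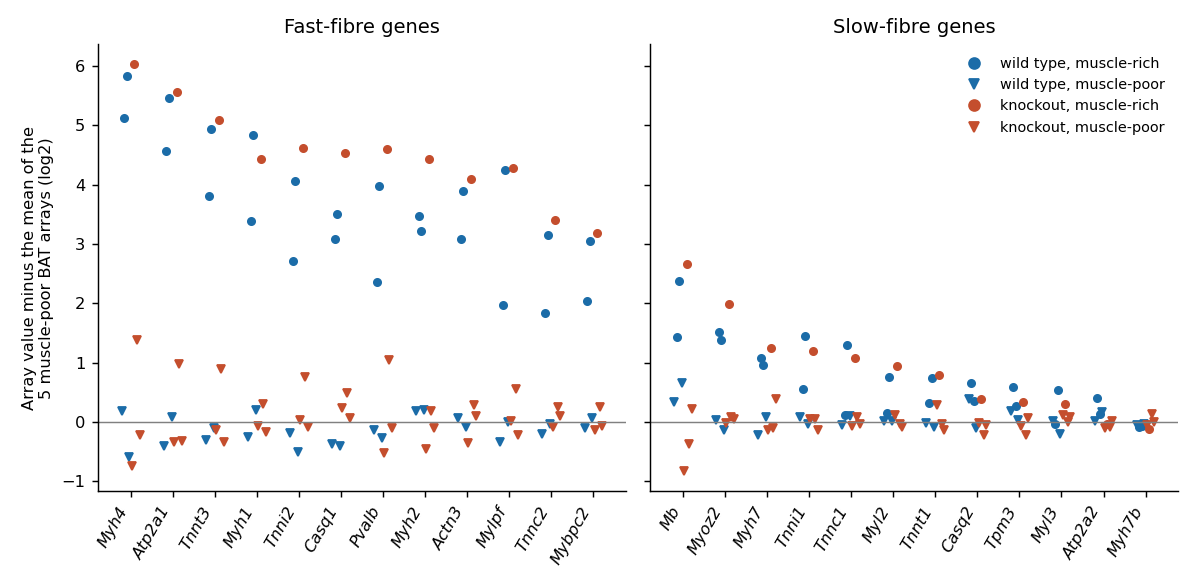
Value of each BAT array minus the mean of the 5 muscle-poor arrays (log2, vertical axis) for the 12 fast-fibre genes on the left and the 12 slow-fibre genes on the right, ordered by fitted class difference. Circles are the 3 muscle-rich and triangles the 5 muscle-poor arrays, and the knockout array set apart above the other muscle-poor ones in most fast genes is knockout 3.

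Lists of markers of other cells were compared between the classes in the same way. Of 16 brown adipocyte genes 0 were separated, with a median difference of -0.08 and a range from -0.29 (*Bmp8b*, a thermogenic signal) to 0.36 (*Elovl3*, a fatty acid elongase). Of 12 general adipocyte genes 0 were separated, from -0.04 (*Pnpla2*, the triglyceride lipase) to 0.49 (*Retn*, resistin). The same count of 0 held for the lists of smooth muscle (7 genes), heart muscle (7), endothelium (6), fibroblasts (5), tendon (6), nerve (6), macrophages (6), lymphocytes (6) and red blood cells (3 of 4 measured). Over all genes 0.385% were separated, so a count of 0 in lists this short is close to that share. *Myh6* of heart had a difference of -0.25 and *Acta2* of smooth muscle one of 0.34.

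The macrophage list had the highest median of these (0.49), and its members ran from 0.10 (*Cd68*) to 0.57 (*Lyz2*). Its median over the mean of the muscle-poor arrays was 0.07 in wild-type 2, 0.74 in wild-type 3 and 0.61 in knockout 2, against -0.27 to 0.16 in the muscle-poor arrays. Macrophage markers were thus higher in only 2 of the 3 muscle-rich arrays, and their part in the class differences was not tested. *Dcn*, the fibroblast proteoglycan decorin, was the only member of these 11 lists with all muscle-rich arrays above all muscle-poor arrays (0.50).

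Of the 95 separated genes, 37 were outside the 7 lists, and those named here were chosen after their values were seen. The largest differences were those of *Hspb7* (3.40), a small heat shock protein of heart and skeletal muscle, *Ppp1r3a* (3.08), which targets a phosphatase to muscle glycogen, *Abra* (2.63), an actin-binding protein of striated muscle, *Klhl31* (2.28) and *Ankrd23* (2.28), a titin-binding protein. *Hspb7* measured 2.35, 5.27, 5.60 and 2.25 in wild-type and 1.86, 5.88, 2.07 and 2.43 in knockout BAT. The positional gene *Hoxc8* lay at 4.55 to 5.16 in the muscle-poor and 5.79 to 6.14 in the muscle-rich arrays, and *Tbx15*, a T-box factor of adipocytes and glycolytic fibres, at 2.41 to 3.00 and 3.57 to 4.14. The imprinted RNA *H19* lay at 2.03 to 2.58 and 3.19 to 3.68.

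Among the 58 separated muscle genes, 42 had an entry in the RefSeq promoter table, with 49 promoters. In the 250 bases before the start site, searched on both strands, the E-box CAGCTG was present in 23 of the 49 (46.9%), against 13.0% of all 32851 promoters, and any CANNTG in 83.7% against 66.2%. Every CAGCTG is also counted as a CANNTG. The CArG box was present in 10.2% against 1.47%, the element CTANNNNTAG in 12.2% against 3.20%, and TATAAA in 10.2% against 12.4%. These are counts of letters in the window, and several promoters belong to the same gene.

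The 3 muscle-rich arrays differed in their values of the separated muscle genes. Of the 58 separated muscle genes, 50 were highest in knockout 2 and 8 in wild-type 3, and 54 were lowest in wild-type 2 and 4 in wild-type 3. The shares over all genes are not given, so these counts only describe the 58. On a linear scale, the excess over the mean of the muscle-poor arrays in wild-type 2 was 0.419 times that in knockout 2 (median over the 58 genes, quartiles 0.314 and 0.540). For wild-type 3 the median was 0.860 (quartiles 0.700 and 0.929). The single genes ran from 0.140 (*Tmem38a*, a potassium channel of the sarcoplasmic reticulum) to 0.901 (*Ampd1*, the muscle AMP deaminase) in wild-type 2, and from 0.405 (*Myh2*) to 2.23 (*Sln*, the SERCA inhibitor sarcolipin) in wild-type 3. Each ratio rests on single arrays and has no error, and some of these genes were dim. *Sln* measured 2.47, 3.91 and 3.11 in wild-type 2, wild-type 3 and knockout 2, near the array medians. Whether the share of one array in another differs between muscle genes was not tested. *Myh2* was higher in wild-type 2 (5.77) than in wild-type 3 (5.51), whereas *Mylpf* was 4.60 in wild-type 2 and 6.87 in wild-type 3.

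Knockout 3, the muscle-poor array nearest to the cut-off, was the highest of the 5 muscle-poor arrays for 11 of the 12 fast genes and for 25 of the 58 separated muscle genes. The share over all genes is not given, and the 58 were chosen by the class, so these counts are a description. Its *Myh4* (4.53), *Pvalb* (4.07) and *Atp2a1* (4.78) exceeded the mean of the other 4 muscle-poor arrays by 1.72, 1.30 and 1.22. The median of this excess was 0.65 over the 12 fast genes and 0.13 over the 58. In the list medians of the fast genes, knockout 3 stood 0.52 above the mean of the muscle-poor arrays, against 3.08, 4.02 and 4.48 in wild-type 2, wild-type 3 and knockout 2 and between -0.20 and -0.07 in the other 4. Without knockout 3, an alternative added after its values were seen, 92 genes were separated.

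Genotype was not used to class the arrays, so it can be tested. With limma, a linear model per gene with variances moderated across genes, and Benjamini-Hochberg adjustment over all genes, 7 genes (0.0284%) differed between knockout and wild-type BAT at an adjusted p below 0.05, 1 higher and 6 lower. The count was 0 with quantile normalization, without the muscle-rich arrays and without any single one of wild-type 2, 3 and 4 or knockout 1, 3 and 4, and 80 without wild-type 1. None of the 135 muscle genes was among them (smallest adjusted p = 0.164), and 6 of the 135 had an unadjusted p below 0.05, against 12.7% of all genes. The 3 marker genes are counted among the 135 but are given without a p of their own. Their values chose or accompany the class, and 2 wild-type arrays but 1 knockout array were muscle-rich. *Acta1* differed by -0.83 (standard error 1.54), *Myh4* by -1.03 (1.73) and *Tnnt3* by -0.71 (1.41).

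With the class added to the model, the sign of most separated muscle genes turned and their errors shrank, which the choice of these genes by the class fixes in part. The median difference between knockout and wild type over the 58 separated genes went from -0.32 (3 higher and 55 lower, median standard error 0.747) to 0.23 (53 higher and 5 lower, median standard error 0.201). *Acta1* then differed by 0.48 (standard error 0.21), *Myh4* by 0.42 and *Tnnt3* by 0.47. Again, 0 of the 135 muscle genes passed the threshold in limma (16 with an unadjusted p below 0.05, against 11.7% of all genes, smallest adjusted p = 0.130), and over all genes 0 passed (0%, 2877 unadjusted, smallest adjusted p = 0.105). Within the 5 muscle-poor arrays alone, 2 wild-type against 3 knockout, the median over the 58 was 0.03. There 0 of the 135 passed (9 unadjusted, against 7.13% of all genes, smallest limma adjusted p = 0.504). The 135 include *Acta1*, which set the classes and is among the 16, and the 58 genes chosen by the class. The counts for the 135 in both fits are therefore a description.

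None of the 7 genes that passed without the class is in the muscle lists. *Pmepa1*, a brake on TGF-beta signalling, fell by 1.82 (adjusted p = 0.0483 in limma) and differed by -1.84 with the class (adjusted p = 0.105). *Agpat2*, a triglyceride synthesis enzyme, went from -0.60 to -0.58, *Sulf2* from -0.68 to -0.66, *Acot2* from -1.06 to -1.04 and *Hmgcs1*, of cholesterol synthesis, from -0.85 to -0.81. The other 2, named after their values were seen, were *Zfp36l2*, an RNA-binding protein (-1.15 to -1.13), and *Rnu12*, the U12 spliceosomal RNA and the only gene that was higher in the knockout (0.92 to 0.91). *Gpr146* differed by -1.16 (limma adjusted p = 0.0727) without and by -1.09 (0.116) with the class. Adding the class moved the estimates of the 3 marker genes by over 1 log2 unit and those of these 7 genes and *Gpr146* by less than 0.1. The marker genes chose or accompany the class, which is split unevenly between the genotypes. The 7 genes were picked by their genotype p. This contrast therefore follows in part from the choice of genes and is a description.

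Several genes read as measures of calcium and creatine cycling in brown fat are also muscle genes, and this set was put together after values had been seen. *Ckmt2* differed between genotypes by -0.42 (standard error 0.87) without and 0.30 (0.24) with the class, and *Ryr1* by -0.24 (0.44) without and 0.12 (0.11) with it. Neither passed the threshold in these fits or within the 5 muscle-poor arrays. *Ckmt1*, *Ryr2* and *Atp2a2*, the other members of these pathways examined, were not separated by the class, with class differences of -0.15, -0.17 and 0.11. Between genotypes they differed by 0.03 (standard error 0.10), -0.24 (0.24) and -0.23 (0.10) without the class, and none passed the threshold. *Atp2a2* had an unadjusted p of 0.0325 in limma (adjusted p = 0.337) and differed by -0.21 with the class. *Ucp1* differed between genotypes by -0.21 without and -0.19 with the class (two-sided exact permutation test over 4 against 4 arrays, p = 0.114).

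**Figure D4:**
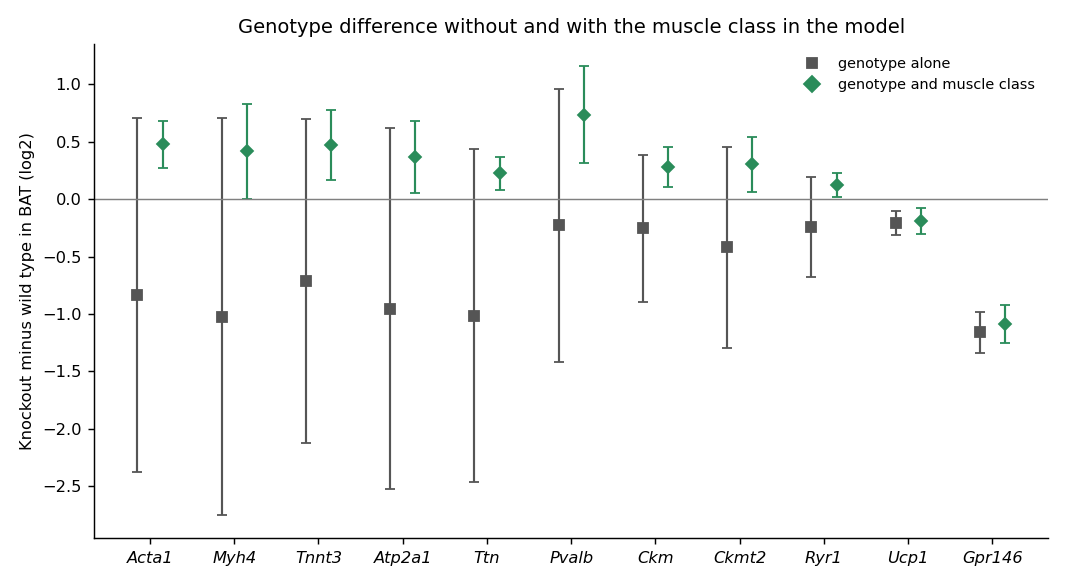
Difference between knockout and wild-type BAT (log2, vertical axis) with its standard error for 9 muscle genes, *Ucp1* and *Gpr146*, from the model with genotype alone (squares) and with the muscle class added (diamonds). *Acta1* moves from -0.83 to 0.48, while *Gpr146* stays near -1.1 and *Ucp1* near -0.2.

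The other tissues of the mice with the same numbers were then compared by the class of their BAT array, with genotype in the model. These arrays had no part in the rule. Each tissue has a table of its own, so only values within a tissue were compared, and the labels do not state that a number marks the same mouse in every tissue. At an adjusted p below 0.05 in limma, 0 genes differed by class in iWAT (0%), eWAT (0%) and liver (0%), with smallest adjusted p of 0.999, 0.924 and 0.957 and 509, 1257 and 1229 genes at an unadjusted p below 0.05. Of the 135 muscle genes, 8, 3 and 8 had an unadjusted p below 0.05, against 2.07%, 5.1% and 4.99% of all genes. In iWAT 1 of the 8 was higher and the rest were lower in the mice with muscle-rich BAT. The median difference over the 58 genes separated in BAT was -0.18 in iWAT, -0.02 in eWAT and -0.04 in liver. In iWAT 9 of the 58 were higher and 49 lower, with a median of -0.02 over all genes. Without iWAT of wild-type 4, which lies among the mice with muscle-poor BAT, the median over the 58 was -0.08, with 14 higher and 44 lower, and 4 of the 135 had an unadjusted p below 0.05, against 1.13% of all genes.

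The iWAT array of wild-type 4, a number whose BAT array was muscle-poor, had higher values of several fast muscle genes than the other iWAT arrays. There *Myh4* was 7.17 against 2.28 to 3.40 in the other 7 iWAT arrays, *Atp2a1* 6.54 against 3.13 to 3.93 and *Tnnt3* 6.22 against 4.07 to 4.64. *Neb* (5.26), *Ttn* (5.10) and *Pvalb* (4.54) were also highest in this array. It exceeded the next array by at least 1 log2 unit for 8 of the 58 muscle genes (13.8%) and for 5 of the 12 fast genes, against 0.154% of all genes, or 38. Genes not in the muscle lists were among the 38, such as *Prg4*, a lubricating glycoprotein (8.53 against at most 5.07), *Col12a1*, a collagen (6.23 against at most 4.38), and *Trem2*, a macrophage receptor (6.68 against at most 5.26), named after their values were seen. *Hspb7*, the small heat shock protein of heart and skeletal muscle, is outside the lists too and was among the 38 (7.14 against at most 4.94). The part of other cells in this array's values was not tested. *Myh1*, at 2.58, was not its highest value among the iWAT arrays, where knockout 3 had 2.62.

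*Acta1* did not always go with *Myh4* in white fat. In iWAT it was 6.79 in wild-type 3 and 6.54 in wild-type 4 against 4.20 to 4.46 in the other 6 arrays. *Myh4* in iWAT was 7.17 in wild-type 4, yet 2.80 in wild-type 3. In eWAT *Acta1* ranged from 4.43 to 6.81, while *Myh4* stayed between 1.70 and 2.36. In liver *Acta1* lay between 2.93 and 3.33 and *Myh4* between 2.03 and 2.91. Between genotypes, 0 of the 135 muscle genes passed in iWAT (0% of all genes passed), 14 in eWAT (15.2%) and 1 in liver (0.661%).

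**Figure D5:**
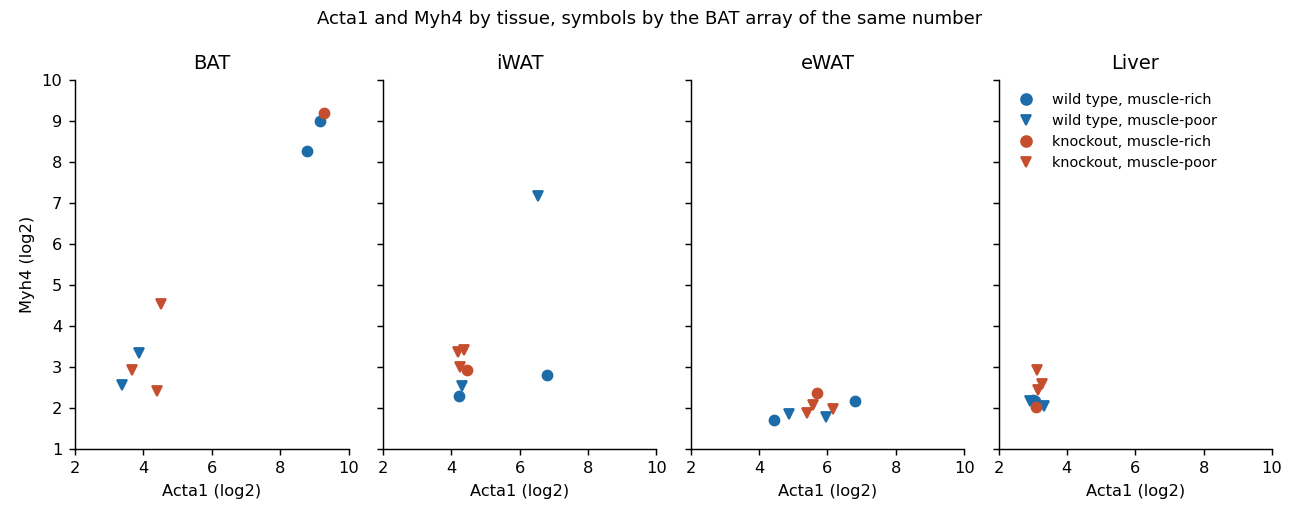
*Acta1* (horizontal axis) against *Myh4* (vertical axis), both as log2 expression, in the 8 arrays of each tissue, with colour for genotype and shape for the class of the BAT array of the same number. The 3 muscle-rich BAT arrays stand at the upper right of their panel, and in iWAT wild-type 4 alone has *Myh4* above 7.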

How the data were processed

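RNA (100 ng, labelled with biotin) of 32 tissue samples was hybridized to arrays, 1 per sample. The authors deposited a table of log2 expression values per tissue, and these were used as they stand. The software, the summary of probes and the normalization are not given in the sources used here. For 840 genes the deposited identifier is not a whole number, as an average of several probe set identifiers could be. How the values of such genes were combined is not stated. Entries with a blank name or a name turned into a number were left out (2 in BAT, iWAT and liver, 1 in eWAT), leaving 24646 genes. Columns of other series used: 0. Titles of the knockout livers also name the wild type, and the genotype label was followed.

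The members, the gene lists and the comparisons were chosen with earlier results of these data known. Class differences are coefficients of a linear model with genotype. Tests used limma 3.58.1 (R 4.3.3) with Benjamini-Hochberg adjustment within a tissue at 0.05, and two-sided exact permutation tests. Symbols were matched through RefSeq synonyms. Named were the 3 markers, *Gpr146*, *Ucp1*, the extremes of each list, all fast and slow genes, the 10 largest differences and the up to 5 lowest p among genes called between genotypes. Of these, 1 gene is not reported here, and some are given only within the counts and ranges of their lists. Other names were chosen after their values were seen. Alternatives were quantile normalization, dim genes left out, another variance prior, a stricter size rule, no covariate, fits within a genotype, the replicate block, the methods' t-test and each array or the muscle-rich arrays left out. The number of arrays limits the precision. The fits were tested on simulated data. Figures were drawn with matplotlib 3.10.9.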

Additional observations from a re-analysis of the deposited data

Results flagged for a closer look

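Within a genotype of 4 BAT arrays, the highest or lowest array stood apart when its gap to the next, divided by the whole range, exceeded the critical value at which chance marks about 1 in 20 groups. Of 156 groups examined (78 named genes in each genotype), 28 met this. The muscle genes were 23 of the 28, and knockout 2 was the high array in 22 of them, as the only muscle-rich array of its genotype. These genes were chosen for their class difference, so most of the 22 follow from that choice and count as a description. The gap was 0.951 of the range for *Myoz2*, 0.941 for *Ckmt2*, 0.934 for *Actn2*, 0.926 for *Ttn*, 0.922 for *Neb* and 0.921 for *Kbtbd10*. It was 0.916 for *Pygm* and for *Cox6a2*, 0.908 for *Casq1*, 0.903 for *Tnnc2*, 0.895 for *Myh1*, 0.890 for *Mybpc1* and 0.886 for *Mybpc2*. It was 0.876 for *Trdn*, 0.870 for *Myh2* and for *Tnnc1*, 0.865 for *Myf6*, 0.856 for *Myot*, 0.855 for *Actn3*, 0.854 for *Tnni1*, 0.849 for *Sgca* and 0.848 for *Acta1*.

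Among wild-type arrays, *Tnnc1* was high in wild-type 3 (0.867), *Col3a1* high in wild-type 1 (0.845), *Cldn5* low in wild-type 4 (0.860) and *Hmgcs1* low in wild-type 1 (0.835). Among knockout arrays, *Myl7* was low in knockout 3 (0.943) and *Sulf2* low in knockout 4 (0.883).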

How the results depend on the processing

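The 95 genes separated by class became 46 with a size rule of 2 log2 units and 182 within the knockout arrays alone, where 1 muscle-rich array faces 3, and leaving out each array in turn gave 92 to 119. The 7 genes called between genotypes in BAT became 0 with quantile normalization, with the replicate number as a block, with the muscle-rich arrays left out and by the methods' t-test (2803 at an unadjusted p below 0.05, 0 after Benjamini-Hochberg), and 0 to 80 when arrays were left out in turn, 80 without wild-type 1. With the class in the model the 0 genes became up to 22 (0 to 22), again without wild-type 1. Liver by BAT class ranged from 0 to 2, with 2 without liver of wild-type 3, while iWAT, eWAT and the 135 muscle genes between BAT genotypes, without the class in the model, stayed at 0 under the alternatives run. The difference between knockout and wild type turned to 0.57 for *Acta1*, 0.34 for *Myh4* and 0.34 for *Tnnt3* with the muscle-rich arrays left out, and ran from -2.10 to 0.13, -2.50 to 0.039 and -1.95 to 0.24 with arrays left out in turn, lowest without knockout 2 and highest without wild-type 3, both muscle-rich. *Gpr146* passed the threshold without wild-type 1 (-1.25) or knockout 2 (-1.32). Of the other single-gene values, 173 kept direction and side, and the 6 that reversed and the 2 that gained significance are those given. The causes were not tested.

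Same-numbered BAT arrays share only a number in the labels: their deviations from the genotype means correlated at 0.156, 0.123, 0.0120 and 0.222, and the replicate block changed no call other than those 7.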
